A study of Homo sapiens with 42 samples.

Results

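The genes described here encode machinery of the secretory pathway, the route by which newly made proteins enter the endoplasmic reticulum (ER), fold and travel through the Golgi apparatus to the cell surface. They were chosen by name: a probe had to name a single gene whose symbol starts with SSR, SRP or SEC followed by a digit, PDIA, COPA, COPB, COPE, COPG, COPZ, TMED, or ARF followed by a digit, with pseudogenes and SECISBP2 left out. This gave 38 of the 5631 genes named by such probes. They were measured by 66 probes. Where a gene had several, its brightest on average over the arrays (in log2) stands for it. The rule itself uses symbols and no measured difference, but it was set with earlier results of these data known. All were measured in Hep3B, an established human hepatoma cell line, on 42 arrays of total RNA. Of these, 21 came from cells given CM, a medium labelled as rich in pro-inflammatory cytokines, and 21 from cells given the control medium NCM. Cells in both were taken at 7 times, which were T0, then 15 min and 30 min, and then 1 h, 3 h, 6 h or 16 h, with 3 arrays per medium and time. The CM and NCM cultures of a pair came from the same batch of trypsinized cells, and pairs were made in 3 independent experiments, so each time had 3 pairs. The labels name no genotype or other agent, and every group shares the single cell line. They do not say what T0 meant for cells in CM, nor which cytokines CM held.

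Proteins bound for secretion carry a signal peptide. The signal recognition particle (SRP) binds it as it leaves the ribosome and brings the ribosome to the SEC61 channel in the ER membrane, where the SSR proteins, subunits of the translocon-associated protein complex, sit beside the channel and signal peptidase removes the signal. Protein disulfide isomerases then help to form the right disulfide bonds. COPII-coated vesicles carry folded cargo from the ER to the Golgi, COPI-coated vesicles carry proteins back, p24 proteins (the TMED genes) select cargo in both, and small GTPases of the ARF family recruit coats to membranes. Hepatocytes secrete most plasma proteins, and in the acute-phase response cytokines change which of these they make.

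The 38 genes fell into groups by role: 11 of targeting and translocation, 2 disulfide isomerases, 9 of the COPII coat and its partners, 6 of the COPI coat, 5 p24 cargo receptors and 2 ARF GTPases. The remaining 3 carry a fitting symbol but have another role. SSRP1 is a histone chaperone subunit, and SEC14L3 and SEC14L4 belong to a family of lipid-binding proteins.

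Part of this machinery is known to be induced when unfolded proteins build up in the ER, through short promoter elements. RefSeq promoters (GRCh38.p14) were matched for 36 of the 38 genes, and the 250 bases before each annotated start were searched on both strands. The UPR element TGACGTGG was found in 6 of the 36 (16.7%), namely COPB1, COPB2, SEC24A, SEC62, SSR3 and SSR4. It was found in 0.78% of 27305 genes with a promoter in the same table and in 1.26% of the 4692 of them that the arrays name. Among 37 matched genes from lists of other ER folding and unfolded protein response genes, 3 held it. The ER stress response element, the 2-part motif known as ERSE, was in 0 of the 36 and in 0.0916% of all genes. It was in 7 of those 37 folding and response genes, among them HSPA5, HSP90B1 and CALR. The CCAAT box alone was in 14 of the 36 (38.9%) and in 37% of all genes. TTCNNNGAA, a motif bound by cytokine-activated STAT factors, was in 1 of the 36 (2.78%), SEC16A, and in 8.09% of all genes. A match describes letters in this window only. The stretches of 100 bases that hold the UPR element are shown for the 4 genes in which they lie upstream of every annotated start, because they show where the element lies in genes whose measurements follow below. Capitals mark the element, which reads CCACGTCA where it lies on the opposite strand:

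COPB1, chr11:14499812-14499911, minus strand, bases -100 to -1 from the start: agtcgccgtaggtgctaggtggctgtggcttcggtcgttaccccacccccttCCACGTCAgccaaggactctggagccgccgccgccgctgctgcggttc

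COPB2, chr3:139389790-139389889, minus strand, bases -242 to -143 from the start farther downstream: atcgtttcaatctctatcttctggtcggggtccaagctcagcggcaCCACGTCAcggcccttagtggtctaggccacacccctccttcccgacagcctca

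SEC24A, chr5:134648560-134648659, plus strand, bases -225 to -126 from the start: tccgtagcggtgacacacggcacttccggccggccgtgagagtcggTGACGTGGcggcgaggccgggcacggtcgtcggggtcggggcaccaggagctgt

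SEC62, chr3:169966707-169966806, plus strand, bases -100 to -1 from the start: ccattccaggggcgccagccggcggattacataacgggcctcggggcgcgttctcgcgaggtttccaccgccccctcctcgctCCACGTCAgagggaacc

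The values are log2 levels after quantile normalization, on a scale where the mean probe of every deposited array lies near an intensity of 1, so that a negative level is an intensity below 1. A difference is CM minus NCM in log2, and its SE comes from a limma fit with a term for each pair. Differences between the media are taken within a probe. Levels of different probes are set side by side to choose the brightest probe and to place genes and markers against the median probe. In RNA of whole cultures, fewer cells and less RNA per cell cannot be told apart. The number of arrays limits the precision, and the p-values measure the spread between these cultures. That spread is pooled over the 7 times of a probe and drawn toward that of other probes. The SE of a probe is therefore the same at every single time and is not the spread of the 3 pairs there. For example, TMED5 at T0 had an SE of 0.34, while its 3 pair differences had an SD of 1.48. The median intensity of an array ran from 0.354 to 0.807 before normalization. Hepatocyte markers were measured for 16 of 18 listed genes, and none of them lay at or below the median probe. Their mean level on an array ran from 0.48 to 0.84 in CM and from 0.38 to 1.02 in NCM. Of the leukocyte markers 7 of 15 were measured, 5 at or below the median probe, and of the fibroblast and endothelial markers 7 of 10, again 5 of them at or below it. Leukocyte markers ran from -1.65 to -0.73 in CM and from -1.60 to -0.88 in NCM, and fibroblast and endothelial markers from -1.35 to -0.68 and from -1.38 to -0.68. Their part in any difference below was not tested. Of the 38 secretory genes, 16 had a mean level below that of the median probe. The median correlation of an array with the others was between 0.723 and 0.892. The lowest were the NCM array of experiment 1 at 1 h (0.723), the NCM array of experiment 2 at T0 (0.731) and the NCM array of experiment 1 at 15 min (0.770). Some differences described below are for single times at T0, 15 min or 1 h. Beside these, genes whose CM and NCM arrays are printed also have the value without the experiment of such an array. Ranges over several times have no such value.

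No gene of the secretory machinery differed between CM and NCM past an adjusted p of 0.05 at any time. The same held for nearly the whole array. Of all 13824 probes, 0% were past the threshold at each time from T0 to 6 h, and 0.00723%, which is 1 probe, at 16 h. Averaged over 15 min, 30 min and 1 h (the early mean) it was 0%, and averaged over 3 h, 6 h and 16 h (the late mean) it was 0.0434%, which is 6 probes. It was 0% for the late minus the early mean, for an F test of any CM effect after T0, and for an F test of whether the CM effect differed among the 7 times. Among the 21 NCM arrays alone, 0.0145% of probes (2) differed over the times, and 0 of the 38 genes did. Without adjustment, p was under 0.05 for 4 of the 38 genes in the early mean (10.5%, where 967 of the 13824 probes did so) and for 3 in the late mean (7.89%, against 5.98% of probes). For late minus early it was 6 genes (15.8%, against 7.49%). At single times this held for 4 genes at T0 (10.5%, against 5.06% of probes), 1 at 15 min (2.63%, against 3.56%), 3 at 30 min (7.89%, against 3.51%) and 1 at 1 h (2.63%, against 4.38%). It held for 0 genes at 3 h (against 3.26% of probes), 2 at 6 h (5.26%, against 3.76%) and 1 at 16 h (2.63%, against 4.76%). A common sign among few pairs was frequent on the whole array. From 8.80% to 15.6% of all probes, by time and direction, had the same sign in 3 of 3 pairs, and 2.24% to 3.47% had it in at least 8 of 9 pairs of a mean. Every CM array lay below every NCM array of the same time for 1.47% to 2.76% of all probes.

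With quantile normalized values, the precision was enough to bound the changes in the 2 means. In both the early and the late mean the 95% interval of all 38 genes lay within a 2-fold change in either direction, as it did for 99.3% and 98.9% of all probes. It lay within a 1.5-fold change for 26 of the 38 genes in the early and 27 in the late mean. The interval reaching farthest down was that of PDIA3 in the early mean, from -0.97 to -0.32, and the one reaching farthest up was that of SEC62 in the early mean, from -0.13 to 0.70. At single times, with 3 pairs, the interval stayed within 2-fold for 28 to 33 of the 38 genes.

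**Figure D1:**
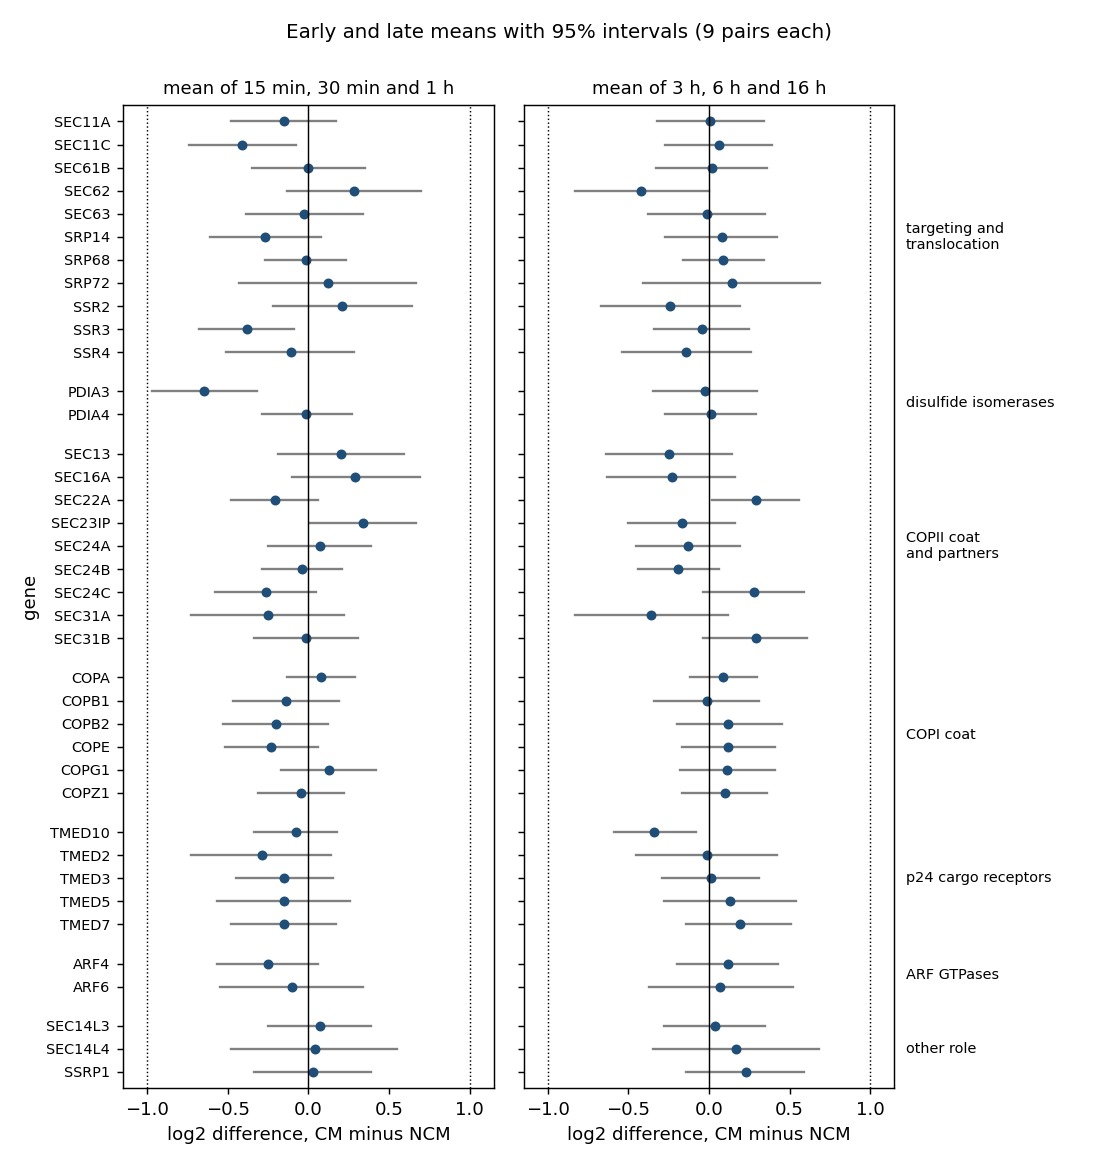
CM minus NCM (log2, x axis) for each of the 38 genes (y axis, grouped by role), left for the early mean and right for the late mean of 9 pairs each. Points are the fitted differences, lines their 95% intervals from limma, and dotted lines mark 2-fold. Every interval stays inside the dotted lines, and PDIA3 lies farthest from 0 in the early mean at -0.65.

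As a set, the genes lay slightly below 0 in the early mean. Of the 38, 26 were below and 12 above 0, with a median difference of -0.06, where the median of all probes was 0.00032 and 6922 of 13824 probes were above 0. The medians of the 9 early pairs ran from -0.24 to 0.14 with an SD of 0.11, so the shift was smaller than the spread between pairs. In the late mean 23 genes were above and 15 below 0, with a median of 0.026 and pair medians from -0.15 to 0.14. By time, the median of the 38 genes was 0.10 at T0, -0.10 at 15 min, -0.046 at 30 min, -0.026 at 1 h, -0.00060 at 3 h, 0.048 at 6 h and 0.05 at 16 h. Within single pairs, between 14 and 25 of the 38 genes were higher in CM. Without the 3 genes of another role the early median was -0.10, with 9 of 35 genes above 0, and the late median 0.013, with 20 of 35 above 0.

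**Figure D2:**
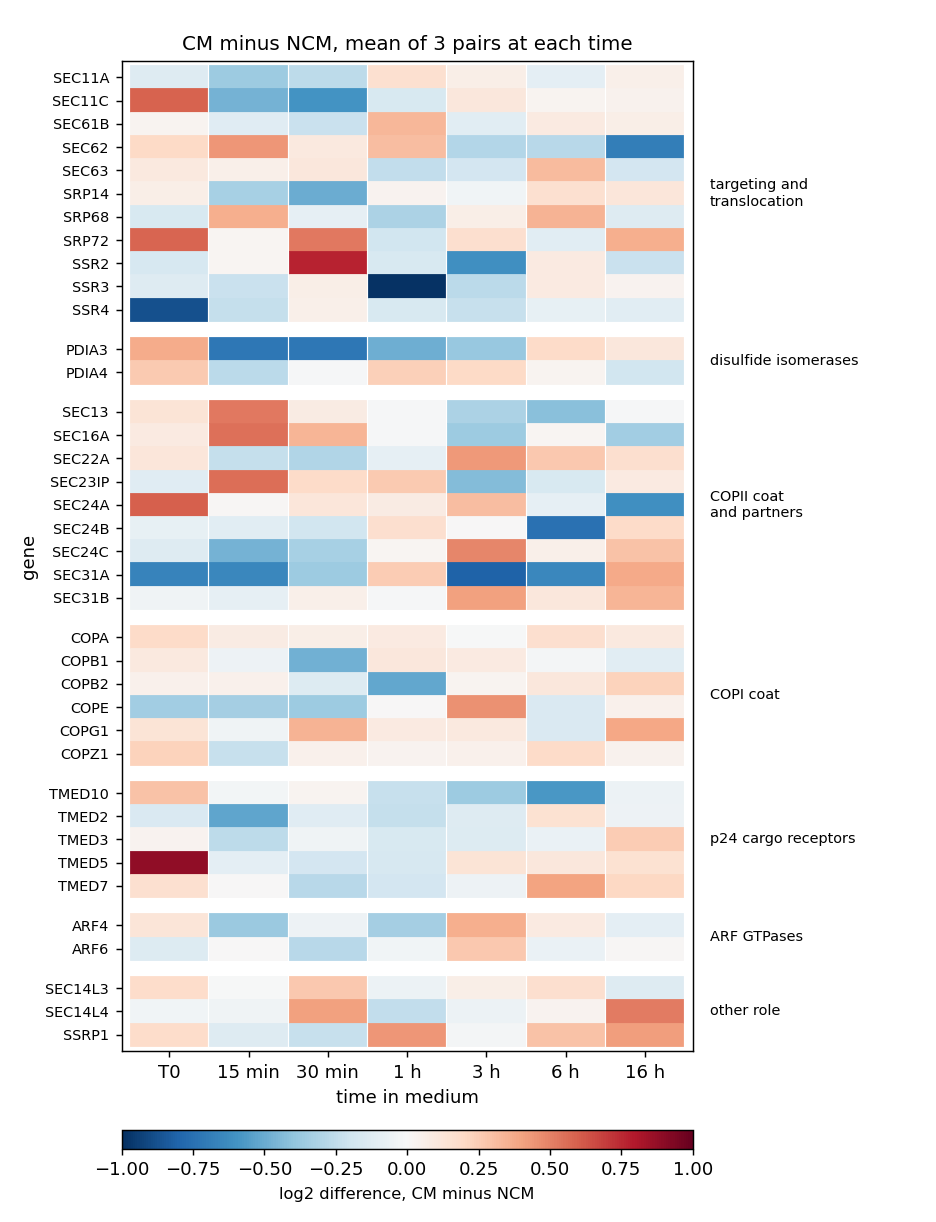
CM minus NCM (log2, colour, from blue for lower in CM to red for higher) for each of the 38 genes (rows, grouped by role) at each time (columns), as the mean of 3 pairs. The deepest blue is SSR3 at 1 h (-0.99) and the deepest red TMED5 at T0 (0.89), and PDIA3 is blue from 15 min to 3 h.

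Among the genes of targeting and translocation, SSR3 showed the lowest single-time value of any of the 38 genes. SSR3 encodes the gamma subunit of the translocon-associated protein complex. At 1 h its CM arrays read -2.56, -2.25 and -1.64 in experiments 1 to 3, and the NCM arrays of the same pairs -1.22, -1.31 and -0.94. Every CM array was below every NCM array. The difference was -0.99 (SE 0.25, 95% interval -1.51 to -0.48, n = 3 pairs), rank 6 of 13824 probes by p, but the limma adjusted p was 0.977. That NCM array of experiment 1 is the one with the lowest correlation; without experiment 1 the difference was -0.82, and with each probe centred on its neighbours on the array it was -0.61. At the times on either side SSR3 gave 0.07 (SE 0.25) at 30 min and -0.27 (SE 0.25) at 3 h, and at 6 h and 16 h it gave 0.09 and 0.039. Its early mean of -0.38 (SE 0.14, adjusted p = 0.686) came mostly from 1 h, and CM was lower in 5 of 9 pairs. Without experiment 1 the early mean was -0.23, and it was -0.19 with neighbour centring.

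SSR4, the delta subunit of the same complex, was farthest from 0 at T0. Its CM arrays read -0.86, -1.71 and -0.77 and its NCM arrays -0.80, 0.48 and -0.39. Most of the gap came from the NCM array of experiment 2, one of the 3 arrays that correlate least with the rest. The difference of -0.88 (SE 0.33, n = 3 pairs, adjusted p = 0.970) became -0.22 without experiment 2 and -0.26 with neighbour centring. After T0, SSR4 lay between -0.24 and 0.06 at every time. SSR2, the beta subunit, ran from 0.77 (SE 0.36, adjusted p = 0.997) at 30 min to -0.61 (SE 0.36, adjusted p = 1.00) at 3 h. At 30 min CM was higher in 2 of 3 pairs and at 3 h in 1 of 3. The time farthest from 0 was thus another for each of the 3 subunits, and none of the 3 passed the test at any time.

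The 3 measured SRP genes encode the SRP14 subunit, which acts in slowing elongation while the ribosome is brought to the membrane, and SRP68 and SRP72, which form a dimer on the SRP RNA. For SRP14 the early mean was -0.27 (SE 0.16, adjusted p = 0.780) and the late mean 0.08 (SE 0.16). SRP68 had -0.016 (SE 0.12) and 0.09 (SE 0.12), and SRP72 had 0.12 (SE 0.26) and 0.14 (SE 0.26). SRP72 had the widest interval of the 38 genes. Its T0 difference of 0.58 (SE 0.46) rests on a single NCM value, -3.27 in experiment 2, one of the arrays that correlate least: the other 2 pairs at T0 differed by 0.12 and -0.67.

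SRP14 is also the gene with the most probes, 14 spots of 3 clones, which shows how far spots of a single gene differ. Over the 14 spots the early mean ran from -0.41 to 0.21, with 6 above 0, and the late mean from -0.23 to 0.22, with 7 above 0. The SD between spots was 0.19 in the early and 0.13 in the late mean, close to the SE of a single probe. Averaged over the 14 spots, the difference was -0.09 at T0, -0.032 at 15 min, -0.22 at 30 min, -0.030 at 1 h, -0.15 at 3 h, 0.049 at 6 h and 0.10 at 16 h. At 30 min the 3 pairs gave 0.31, -0.75 and -0.23, so the pairs disagreed in sign even after averaging. At 3 h they gave -0.045, -0.15 and -0.25, below 0 in 3 of 3 pairs and in 12 of the 14 spots. The spots were measured on the same arrays, and at T0 and at 30 min only 3 of the 14 were above 0.

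SEC61B, the beta subunit of the translocation channel, had an early mean of -0.0018 (SE 0.17) and a late mean of 0.016 (SE 0.17). Its 4 probes ran from -0.41 to -0.0018 in the early and from 0.016 to 0.46 in the late mean, so all 4 were below 0 early and above 0 late. The probe taken for the gene was the one nearest to 0 in both. SEC62 and SEC63 encode membrane proteins that assist the channel. For SEC62 the late mean was -0.42 (SE 0.20, 95% interval -0.83 to -0.0026, adjusted p = 0.827) and the early mean 0.28 (SE 0.20, adjusted p = 0.800). CM was higher in 5 of the 9 late pairs, and the late mean was -0.19 without experiment 2 and -0.76 without experiment 3. At 16 h its CM arrays read -0.82, -0.17 and 0.63 and its NCM arrays 0.37, 1.01 and 0.32. CM was lower in experiments 1 and 2 and higher in experiment 3, a difference of -0.69 (SE 0.34, adjusted p = 0.942). The other 4 probes of SEC62 did not show it: over all 5 probes the late mean ran from -0.42 to 0.31, and their average was 0.011, above 0. SEC63, with a single probe, had -0.027 (SE 0.17) and -0.015 (SE 0.17) in the early and late mean.

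**Figure D3:**
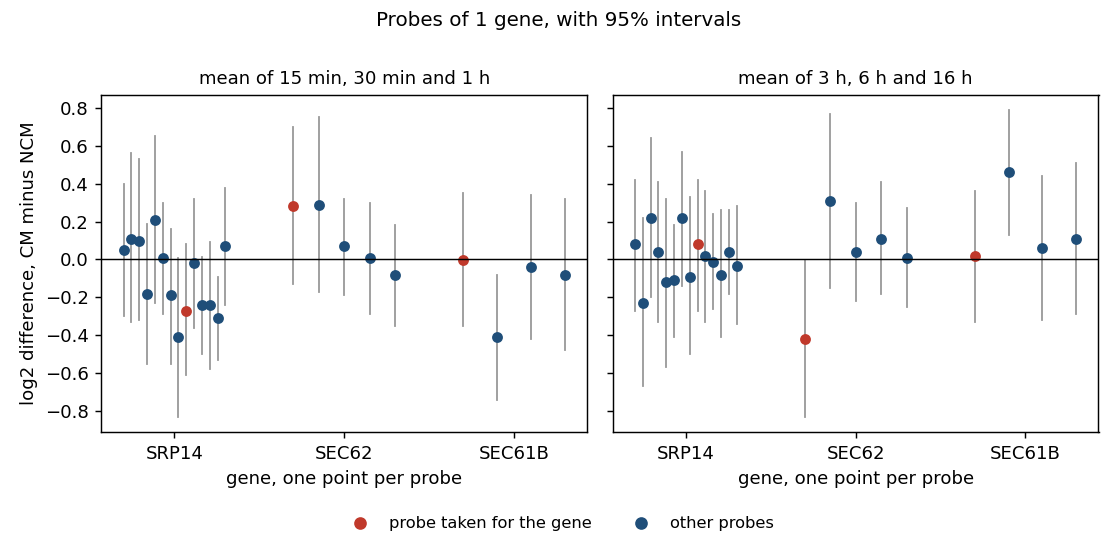
CM minus NCM (log2, y axis) for each probe of SRP14 (14 spots), SEC62 (5 probes) and SEC61B (4 probes), left for the early and right for the late mean. Lines are 95% intervals, and red marks the probe taken for the gene; the red SEC62 probe at -0.42 in the late mean lies below the other 4.

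SEC11A and SEC11C encode the 2 alternative catalytic subunits of signal peptidase. SEC11C was lower in CM in 8 of the 9 early pairs. Its arrays read 0.038, -2.17 and -1.24 in CM and 0.37, -1.55 and -0.79 in NCM at 15 min. At 30 min they read -0.96, -2.38 and -1.67 in CM and -0.92, -1.21 and -1.06 in NCM. The level differed more between experiments than between media, and CM was lower in 3 of 3 pairs at both times. Without experiment 1 the difference was -0.54 at 15 min, in place of -0.47. The early mean was -0.41 (SE 0.16, adjusted p = 0.686), and it lay between -0.36 and -0.51 when an experiment was left out. It was -0.63 with values as deposited, where the adjusted p was 0.329, the smallest over its alternatives, and -0.65 with median centring. With neighbour centring the early mean was -0.33. At T0 SEC11C differed in the other direction. CM was higher in 2 of 3 pairs, with a difference of 0.59 (SE 0.27, limma adjusted p = 0.976). The T0 value was 0.25 without experiment 2 and 0.35 with neighbour centring. From 3 h on SEC11C was between 0.026 and 0.11. SEC11A had an early mean of -0.15 (SE 0.16, adjusted p = 0.881) with CM lower in 5 of 9 pairs, and a late mean of 0.0095 (SE 0.16).

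PDIA3 had the smallest p of the 38 genes in the early mean and the largest early difference. It encodes a thiol oxidoreductase of the ER that works with the lectin chaperones calnexin and calreticulin on glycoproteins. At T0 it was higher in CM in 3 of 3 pairs, with CM at -0.14, -0.06 and 0.80 and NCM at -0.27, -0.16 and -0.10, a difference of 0.37 (SE 0.27, adjusted p = 1.00). It was 0.51 without experiment 2 and 0.11 without experiment 3. At 15 min CM read -0.06, -0.93 and 0.05 and NCM 1.43, -0.38 and 0.19. The CM array was below its partner in 3 of 3 pairs, although the groups overlapped, and the difference was -0.72 (SE 0.27, adjusted p = 1.00). The largest gap lay in experiment 1, whose NCM array is among the 3 that correlate least; without that experiment the difference was -0.34. With all pairs kept it was -0.37 with values as deposited and -0.39 with median centring. At 30 min CM read 0.30, -1.30 and -0.88 and NCM 0.76, -0.35 and -0.12, again lower in 3 of 3 pairs, with a difference of -0.72 (SE 0.27, adjusted p = 0.997) and -0.86 without experiment 1. At 1 h CM read 0.19, -0.33 and -0.06 and NCM 0.93, -0.39 and 0.73. CM was lower in 2 of 3 pairs, by -0.49 (SE 0.27, adjusted p = 0.977), and by -0.36 without experiment 1. The difference was -0.38 (SE 0.27) at 3 h, 0.19 (SE 0.27) at 6 h and 0.11 (SE 0.27) at 16 h.

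Over the 3 early times PDIA3 was lower in CM in 8 of 9 pairs, and the early mean was -0.65 (SE 0.16, 95% interval -0.97 to -0.32). This was 0.64 of the level in NCM, rank 3 of 13824 probes by p, with an adjusted p of 0.686. Over the alternative settings, those that left out an experiment included, the early mean lay between -0.73 and -0.45 and the adjusted p between 0.470 and 1.00. The late mean was -0.025 (SE 0.16), and late minus early was 0.62 (SE 0.22, adjusted p = 0.607), the smallest adjusted p of any of the 38 genes in that comparison. PDIA4, the other disulfide isomerase measured, did not follow. Its early mean was -0.012 (SE 0.14) and its late mean 0.013 (SE 0.14). At T0 it was higher in CM in 3 of 3 pairs (0.26, SE 0.23) and at 15 min lower in 3 of 3 (-0.27, SE 0.23), but at 1 h it was higher in 3 of 3 (0.24, SE 0.23). Without experiment 2 the T0 value was 0.34, and without experiment 1 those at 15 min and 1 h were -0.23 and 0.34.

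**Figure D4:**
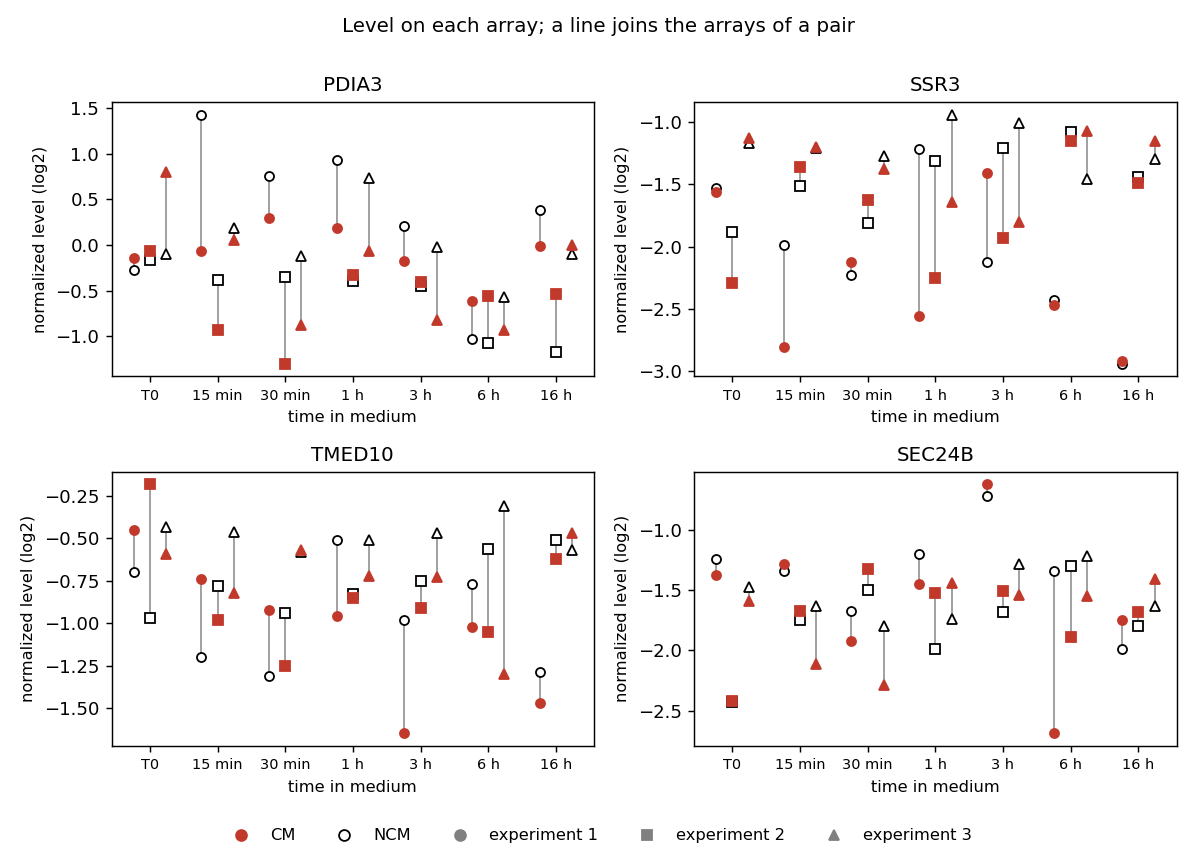
Normalized level (log2, y axis) of PDIA3, SSR3, TMED10 and SEC24B on each of the 42 arrays by time (x axis), with CM in red and NCM open, a symbol for each experiment and a line joining the arrays of a pair. PDIA3 lies lower in CM in 8 of 9 pairs from 15 min to 1 h, SSR3 in 3 of 3 at 1 h, and TMED10 and SEC24B in 3 of 3 at 6 h.

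For the genes of the COPII coat and its partners, values above and below 0 were mixed. The median was -0.014 in the early mean (4 above and 5 below 0) and -0.17 in the late mean (3 above and 6 below 0). The early count depends on the scaling: without quantile normalization 8 of the 9 were below 0, with a median of -0.17, and with neighbour centring 4 were below and 5 above 0, with a median of 0.05. SEC24A, SEC24B and SEC24C encode inner-coat proteins that bind cargo. SEC24B at 6 h read -2.69, -1.89 and -1.55 in CM and -1.34, -1.30 and -1.22 in NCM. Every CM array was below every NCM array, with a difference of -0.75 (SE 0.21, rank 26 of all probes by p, adjusted p = 0.833). The lowest CM value came from experiment 1, and without it the difference was -0.46. At 3 h and 16 h, on either side, SEC24B gave 0.0029 (SE 0.21) and 0.19 (SE 0.21).

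SEC24A, with the UPR element shown above, was higher in CM at T0 and lower at 16 h. At T0 CM read -1.60, -1.63 and -1.55 and NCM -1.69, -2.26 and -2.63, a difference of 0.60 (SE 0.26, adjusted p = 0.973) with CM higher in 3 of 3 pairs. It was 0.59 without experiment 2 and 0.36 without experiment 3. At 16 h CM read -2.93, -2.01 and -1.92 and NCM -1.70, -1.56 and -1.76, a difference of -0.61 (SE 0.26, adjusted p = 0.942) with every CM array below every NCM array. Without experiment 1 the 16 h difference was -0.30, and without experiment 3 it was -0.84. With all pairs kept it was -1.01 with values as deposited, -0.93 with median centring and -0.42 with neighbour centring. In between, from 15 min to 6 h, SEC24A lay between -0.09 and 0.31. SEC24C was at -0.26 (SE 0.15, adjusted p = 0.752) in the early and 0.28 (SE 0.15, adjusted p = 0.827) in the late mean, and late minus early was 0.54 (SE 0.21, adjusted p = 0.608).

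SEC13, SEC31A and SEC31B encode the outer COPII cage. SEC31A read -0.98, -1.60 and -0.71 in CM and -0.24, -0.29 and -0.34 in NCM at 3 h, with every CM array below every NCM array. The difference was -0.81 (SE 0.39, adjusted p = 1.00), the SE being among the widest of the 38 genes, and -0.43 with neighbour centring. The CM array of experiment 1 at 3 h also correlated weakly with the rest (0.780), and without that experiment the difference was -0.84. In other pairs the level of SEC31A spanned more than this in both media: the mean of a pair ran from -3.16 to 1.00. At T0 its difference was already -0.67 (SE 0.39), and it was -0.41 without experiment 2 and -0.15 with neighbour centring. After T0 the difference ran from -0.81 at 3 h to 0.38 at 16 h. The early mean of SEC31A was -0.25. Its late mean was -0.36, and -0.06 with neighbour centring. At 3 h SEC31B read -0.58, -1.35 and -0.95 in CM and -1.76, -1.07 and -1.26 in NCM. At 6 h it read -0.77, -0.96 and -1.39 in CM and -0.96, -1.24 and -1.27 in NCM, and at 16 h -1.11, -0.85 and -1.18 in CM and -1.59, -1.38 and -1.19 in NCM. CM was higher in 7 of these 9 pairs, with the widest gap in experiment 1 at 3 h. The late mean was 0.29 (SE 0.16, adjusted p = 0.827), 0.12 without experiment 1 and 0.16 with neighbour centring. SEC13 had 0.20 (SE 0.19) in the early and -0.25 (SE 0.19) in the late mean.

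SEC23IP encodes a protein that binds the inner-coat subunit SEC23. At 15 min it read -0.66, -3.21 and -1.73 in CM and -0.94, -3.62 and -2.72 in NCM, with CM higher in 3 of 3 pairs, by 0.56 (SE 0.27, adjusted p = 1.00). The value of -3.62 is the floor set on low intensities, so that pair gives no full difference. Without experiment 1 the difference was 0.70, but it was 0.040 with values as deposited and 0.016 with median centring. Its early mean of 0.34 (SE 0.16, adjusted p = 0.697) turned to -0.39 without quantile normalization and to -0.41 with median centring. SEC22A, a member of the SEC22 family, had a late mean of 0.29 (SE 0.13, adjusted p = 0.825), with CM higher in 8 of 9 pairs. Its second probe gave 0.22, and leaving out an experiment gave 0.20 to 0.36. At 3 h SEC22A read 0.60, -0.032 and -0.58 in CM and -0.09, -0.09 and -1.11 in NCM. The early mean was -0.21 (SE 0.13) for this probe and 0.18 for the other, so the probes had the same sign in the late but not the early mean. At 3 h the second probe was at -0.26. SEC16A, a scaffold of ER exit sites, was at 0.29 (SE 0.19) in the early and -0.23 (SE 0.19) in the late mean.

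For the COPI genes, differences at single times ran from -0.52 (COPB2 at 1 h) to 0.46 (COPE at 3 h), and none passed the test. The median over the 6 was -0.09 in the early mean (2 above, 4 below 0) and 0.10 in the late mean (5 above, 1 below 0). COPA, the alpha subunit, was the most tightly measured of the 38 genes: its difference lay between -0.0041 and 0.19 at all 7 times, with an SE of 0.18 each. Its early mean was 0.08 (95% interval -0.13 to 0.29) and its late mean 0.09 (95% interval -0.12 to 0.30). With quantile normalized values, both intervals lay within a 1.5-fold change either way. COPE, the epsilon subunit, read 0.37, -1.11 and -0.91 in CM and -0.58, -1.54 and -0.91 in NCM at 3 h, a difference of 0.46 (SE 0.24, adjusted p = 1.00). Experiment 1 carried most of it, and without that experiment it was 0.22. COPE was at -0.35 at T0, -0.34 at 15 min, -0.36 at 30 min and 0.0015 at 1 h, with an SE of 0.24 each. Without experiment 2 its T0 value was -0.31, and without experiment 1 those at 15 min and 1 h were -0.14 and -0.07. COPG1 and COPZ1, the gamma and zeta subunits, had early means of 0.13 (SE 0.14) and -0.045 (SE 0.13).

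COPB1 and COPB2, the beta and beta-prime subunits, both hold the UPR element shown above. COPB1 had -0.14 (SE 0.16) in the early and -0.014 (SE 0.16) in the late mean, with its lowest value at 30 min, -0.48 (SE 0.27, adjusted p = 0.997), where CM was lower in 3 of 3 pairs. COPB2 at 1 h read -1.48, 0.20 and 0.85 in CM and -1.67, 0.27 and 2.53 in NCM. The difference of -0.52 (SE 0.27, adjusted p = 0.977) came from experiment 3, and without it the value was 0.06, on the other side of 0, while without experiment 1 it was -0.88. In the late mean COPB2 was at 0.12 (SE 0.16). The 6 genes with the element are described one by one, and none of the 6 passed the test in either mean. Of all 13824 probes, 0% passed it in the early and 0.0434% in the late mean.

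The 5 p24 genes all lay below 0 in the early mean, between -0.29 and -0.08, with a median of -0.15. They were also below 0 without quantile normalization, with median centring and with neighbour centring, where the median was -0.028. When an experiment was left out all 5 again lay below 0, except TMED7 at 0.0064 without experiment 2. None passed the test: the smallest adjusted p among them was 0.802, for TMED2 at -0.29 (SE 0.21). The medians of the 9 early pairs ran from -0.67 to 0.46 with an SD of 0.34, so the spread between pairs exceeded the shift. At 1 h each of the 5 was between -0.24 and -0.16, but with values as deposited or median centring 1 of the 5 was above 0, and without experiment 1 TMED2 was at 0.18. TMED2 was measured by 3 probes and TMED3 by 2, and all of these were below 0 in the early mean, from -0.29 to -0.044 and from -0.28 to -0.15. In the late mean 3 of the 5 genes were above 0, with a median of 0.011.

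TMED10 encodes the p24 protein that pairs with TMED2 and binds COPI through its tail. It was the gene with the most pairs in 1 direction: CM was lower in 14 of the 18 pairs after T0. At 6 h CM read -1.02, -1.05 and -1.30 and NCM -0.77, -0.56 and -0.31. Every CM array was below every NCM array, by -0.58 (SE 0.22, adjusted p = 0.999), and by -0.37 without experiment 3. At 3 h CM read -1.65, -0.91 and -0.73 and NCM -0.98, -0.75 and -0.47, again lower in 3 of 3 pairs, by -0.36 (SE 0.22, adjusted p = 1.00). At 16 h the difference was -0.06 (SE 0.22) and at 1 h -0.23 (SE 0.22), the latter -0.12 without experiment 1. The late mean was -0.34 (SE 0.12, 95% interval -0.59 to -0.08, adjusted p = 0.813), lower in 8 of 9 pairs. It stayed between -0.41 and -0.30 over the alternative settings, with the smallest adjusted p, 0.357, under neighbour centring. TMED5 was at 0.89 (SE 0.34, adjusted p = 0.970) at T0, from CM values of -0.70, -0.99 and -0.93 and NCM values of -0.70, -3.59 and -1.0. The NCM array of experiment 2 carried this alone, and without that experiment the value was 0.035. After T0, TMED5 lay between -0.18 and 0.15. TMED7 was at -0.15 (SE 0.16) in the early and 0.19 (SE 0.16) in the late mean.

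ARF4 and ARF6, GTPases of the Golgi and of the plasma membrane and endosomes, had early means of -0.25 (SE 0.15, adjusted p = 0.768) and -0.10 (SE 0.21, adjusted p = 0.952). Their late means were 0.12 (SE 0.15) and 0.07 (SE 0.21). ARF4 was highest relative to NCM at 3 h, at 0.36 (SE 0.26, adjusted p = 1.00), with CM higher in 3 of 3 pairs. ARF6 lay at the floor on 3 arrays, so its differences there are not full ones. Of the genes with another role, SSRP1 was above 0 in the late mean at 0.23 (SE 0.18, adjusted p = 0.863), with CM higher in 8 of 9 pairs. With neighbour centring its late mean was -0.07, below 0. SEC14L3 and SEC14L4 were at 0.036 (SE 0.15) and 0.17 (SE 0.25).

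For most of the 38 genes the level differed more from pair to pair than between the 2 arrays of a pair. Pairs differ in time as well as in experiment, so the part between pairs also holds differences between times. The share of the sum of squares over the 42 arrays that lay between pairs had a median of 72.0%, from 36.2% for SSRP1 to 95.9% for COPB2, against a median of 69.8% over all probes. It was above 80% for 10 of the 38 genes and for 22.4% of all probes. The mean level of a pair of COPB2 arrays ran from -1.72 to 1.69, while the SD of its CM minus NCM differences was 0.46. At 6 h, for example, COPB2 read -1.25, 1.94 and -1.74 in CM and -1.13, 1.43 and -1.70 in NCM. The 3 experiments did not keep an order: the high pair was that of experiment 1 at T0 and of experiment 2 at 6 h. Subtracting the mean deviation of neighbouring probes left the SD of COPB2 over arrays at 1.20, where it had been 1.13. For SEC22A the same step lowered the SD from 0.74 to 0.32 and for TMED3 from 0.58 to 0.29. SEC23IP, ARF6 and SEC22A also had over 90% of their spread between pairs (94.7%, 91.7% and 92.7%). A comparison that ignores the pairs therefore loses precision: without the pair term the median SE of the 38 genes in the early mean was 0.22 in place of 0.16.

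**Figure D5:**
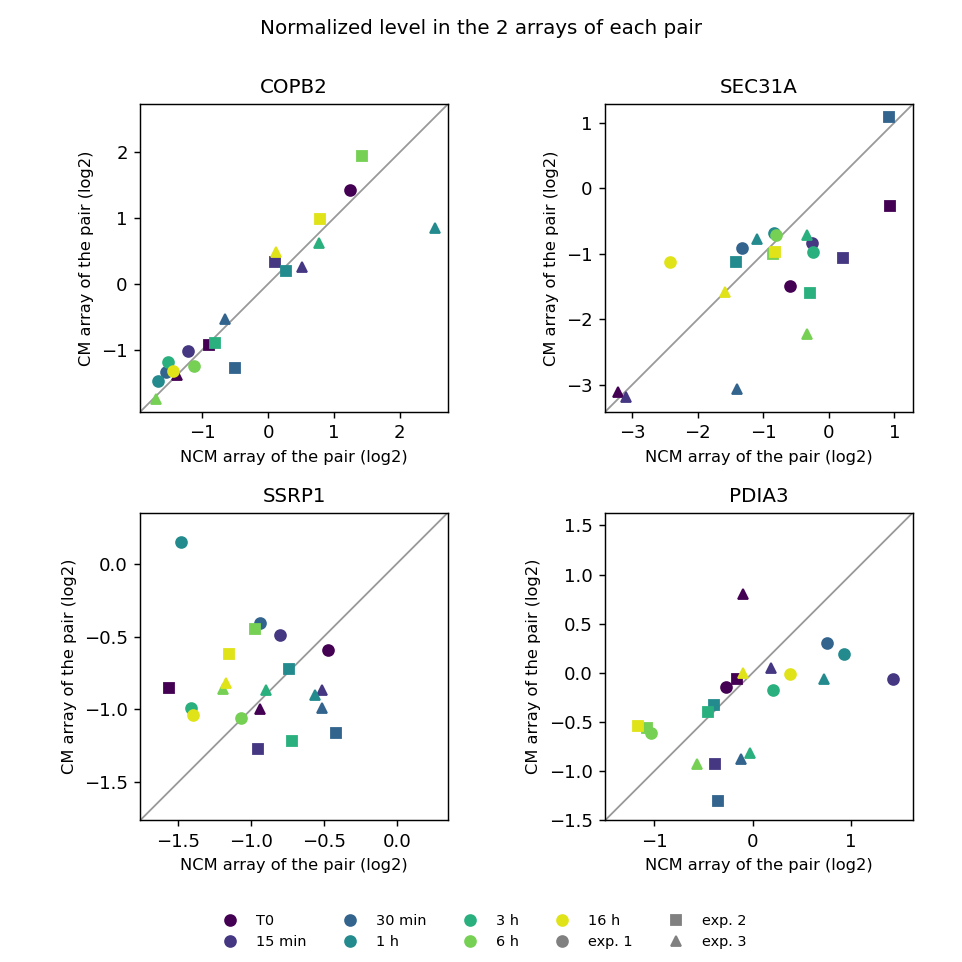
Normalized level (log2) of COPB2, SEC31A, SSRP1 and PDIA3 in the CM array (y axis) against the NCM array (x axis) of each of the 21 pairs, coloured by time, with a symbol for each experiment and a line where both are equal. COPB2 pairs spread along the line from -1.72 to 1.69, while SSRP1 pairs spread across it.

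Other genes of the pathway, taken from lists of known members, gave 0 past the threshold in either direction in the early or the late mean. Of all 13824 probes, 0% were past it in the early and 0.0434% in the late mean. Among all 5631 named genes, each at its brightest probe, 2923 were below 0 in the early and 2791 in the late mean. Of 13 measured genes that act in targeting, signal removal and glycosylation at the ER, such as SRP receptor and oligosaccharyltransferase subunits, 12 were below 0 in the early mean, with a median of -0.11 (pair medians from -0.27 to 0.039, SD 0.10). In the late mean 9 of the 13 were below 0, with a median of -0.08. Of 13 measured ER chaperones and folding enzymes, 9 were below 0 early (median -0.10) and 6 late (median 0.033). HSPA5, the ER chaperone BiP and a standard readout of ER stress, was at -0.044 (SE 0.19) early and 0.10 (SE 0.19) late. Of 13 genes of the unfolded protein response and ER-associated degradation, 8 were below 0 early (median -0.08) and 6 late (median 0.019). Of 29 other genes of ER to Golgi transport, 12 were below 0 early (median 0.034) and 11 late (median 0.031). The hepatocyte markers had a median of -0.027 early and -0.035 late.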

How the data were processed

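The deposited values are intensities on a linear scale, 1 per probe and array, with a mean near 1 on every array. How they were background-corrected and scaled, and on what array and scanner, is not given in the sources used here. Arrays were brought to a common distribution by quantile normalization of the linear intensities. A floor was then set at the 1st percentile of that distribution (0.0812), and levels were expressed as log2. Of 1596 values of the 38 genes, 5 lay at the floor. A model in R 4.3.3 with limma 3.58.1 held a term for every pair and a CM effect at each time, for all 13824 probes (14 residual and 6.26 prior degrees of freedom). Tests were two-sided, p-values were adjusted by Benjamini-Hochberg over all probes, and the threshold was 0.05. NCM over time was fitted on its 21 arrays without a block. Plots used Python 3.11.15 and matplotlib 3.10.9.

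Pairing comes from the labels. The 2 arrays of a pair deviated together: the correlation of their deviations was between 0.308 and 0.754, above 0.1 for each of the 21 pairs. Whether an experiment number stands for one cell batch at all times is not in the labels, and the 9 pairs of an early or late mean come from 3 experiments. By the platform annotation 7336 probes name 1 gene, 576 several and 5912 none; 7322 matched a RefSeq table (GRCh38.p14) by Entrez ID. Array values were given for members with an adjusted p under 0.05, for the 2 with the smallest p at each time and the 4 in each mean, and for any with a single sign in at least 16 of 18 pairs after T0 (0 had it), in all 15 genes; other members were named by role. The members and gene lists were chosen with earlier results of these data known. The alternatives dropped the block, used deposited values without quantile normalization, centred each array on its median, dropped the dimmest 25% of probes, raised the floor to the 10th percentile, fitted times singly, allowed an intensity trend with robust spread, averaged a gene's probes, left out each experiment, centred probes on their neighbours, or dropped 36 probes with copied values. The F test among the 7 times was chosen after seeing the data. The fitting steps were tested on simulated data.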

Additional observations from a re-analysis of the deposited data

How the results depend on the processing

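Under the 13 alternative settings 0 of the genes tested passed the threshold in any comparison made. Without the dimmest 25% of probes, 32 of the 38 genes were tested. Over the single times, the 2 means and late minus early, the smallest limma adjusted p was 0.221, for SEC24B at 6 h with neighbour centring. The number of arrays limits the precision: leaving out an experiment leaves 2 pairs per time. Without the replicate block (the pair term), 0 probes were called at 16 h and in the late mean, and the smallest adjusted p of the 38 genes was 1.00 in both means.

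Among named genes, COPB2 at 1 h ranged from -0.88 to 0.06 when an experiment was left out, SEC23IP in the early mean was -0.39 with values as deposited and -0.41 with median centring, and SEC62 in the late mean was 0.011 as the mean of its probes. The median of the 38 genes at T0 was -0.0031 with values as deposited and 0.029 with neighbour centring. At 1 h it was -0.16 with values as deposited. At 16 h it was 0.013 with values as deposited, 0.10 with median centring and 0.0065 with neighbour centring. Leaving out an experiment gave 0.035 to 0.09 at T0, -0.19 to -0.06 at 15 min and 0.06 to 0.12 at 16 h.

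The number of probes called at 16 h was 0 with values as deposited, median centring or each time fitted alone, 2 without the dimmest probes or with the higher floor, 3 with the trend and robust spread, and 5 with neighbour centring. At 3 h it was 1 without the dimmest probes, with the higher floor, with the trend and robust spread, and with averaged probes. For any effect after T0 it was 2 with the trend and robust spread. In the late mean it was 1 with values as deposited or median centring, 2 with averaged probes and 10 with the trend and robust spread. For NCM over the times it was 1 with values as deposited, with median centring or without copied probes, and 0 with averaged probes. Leaving out an experiment gave 0 to 0 at 16 h, in the late mean and for NCM over the times, and 0 to 1 at 1 h. The cause of these differences was not tested.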
